A study of Mus musculus with 9 samples.

Results

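Heat shock protein genes were followed over 9 one-colour mouse expression arrays of leukemic bone marrow. The 10 genes were Hspa1a, Hspa1b, Hspa8, Hsp90aa1, Hsp90ab1, Hsph1, Dnajb1, Hspb1, Hspd1 and Hsf1. Every probe set whose only gene symbol in the platform annotation was one of these names was taken, which gave 20 of 45101 probe sets for 8 of the 10 genes. Hsp90ab1 and Hsf1 were not analysed here. The set was chosen by measured values of these same arrays, so the differences of its genes are described without a test, and nothing is supported with their counts.

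There were 3 groups of 3 arrays, all of a mixed C57/BL6 and 129 strain background. Both MLL-AF9 groups began as primary leukemias driven by this fusion oncogene and homozygous for a floxed Af10 gene (symbol Mllt10), a partner of the histone methyltransferase Dot1l. The Af10 deleted group had received an MSCV-IRES-tdTomato vector expressing Cre recombinase, and the Af10 floxed group had received the same vector empty. Transduced cells were sorted and injected into secondary recipients, whose marrow was sorted for tdTomato before RNA was extracted. The Hoxa9-Meis1 group consisted of primary leukemias made by transduction of these 2 genes, neither sorted nor otherwise treated. Expression of Cre and loss of Af10 cannot be told apart in the comparison of deleted with floxed leukemias. Against Hoxa9-Meis1 leukemias, the oncogene, the sorting, the vector and the number of transplantations all differ at once and cannot be told apart. The age of the mice is not given, and nothing says that each array came from a separate mouse, so the spread between arrays may in part be technical. In bulk marrow, fewer cells of a type and less RNA per cell cannot be told apart.

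Heat shock proteins are chaperones that bind unfolded or unstable proteins and help them fold, hold them in solution or pass them on for degradation. The transcription factor Hsf1, when released from chaperones under heat or other proteotoxic stress, binds repeats of nGAAn units in alternating orientation, named heat shock elements, and switches on genes such as Hspa1a, Hspa1b, Dnajb1 and Hsph1 within minutes. Other members, Hspa8 and the mitochondrial Hspd1 among them, are made in unstressed cells as well.

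The upstream regions of the genes with the largest array-to-array differences are shown for the sequence they share, since Hspa1a and Hspa1b are neighbouring near-copies whose transcripts an array can confuse. Each is 250 bases ending just before the annotated start, 5′ to 3′ on the gene's strand, from RefSeq (GRCm38.p6). Hspa1a lies at chr17:34972157-34972406 (minus strand), Hspa1b at chr17:34959239-34959488 (minus strand), and Hspb1, shown for its pair of elements, at chr5:135887669-135887918 (plus strand). Capitals mark 2 alternating units, GAANNTTC or TTCNNGAA, each of which reads the same on both strands.
Hspa1a: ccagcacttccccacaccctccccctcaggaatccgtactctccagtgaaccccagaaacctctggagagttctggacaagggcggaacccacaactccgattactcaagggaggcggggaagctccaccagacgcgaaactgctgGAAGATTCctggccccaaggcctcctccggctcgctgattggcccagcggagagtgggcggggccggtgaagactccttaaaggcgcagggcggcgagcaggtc
Hspa1b: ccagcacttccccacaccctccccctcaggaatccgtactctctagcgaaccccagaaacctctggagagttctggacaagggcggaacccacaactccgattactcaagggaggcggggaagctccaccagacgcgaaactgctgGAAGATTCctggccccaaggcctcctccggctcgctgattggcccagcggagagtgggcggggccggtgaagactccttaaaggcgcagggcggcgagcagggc
Hspb1: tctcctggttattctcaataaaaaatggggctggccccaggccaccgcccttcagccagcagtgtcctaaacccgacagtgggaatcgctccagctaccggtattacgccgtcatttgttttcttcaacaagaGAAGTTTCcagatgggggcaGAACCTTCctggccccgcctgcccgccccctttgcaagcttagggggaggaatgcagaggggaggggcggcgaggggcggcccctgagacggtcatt
The regions of Hspa1a and Hspa1b differed at 3 of these 250 bases (98.8% identical), and the marked unit pair began 104 bases before the start in both. In Hspb1 the pairs began 117 and 97 bases before it.

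Longer runs stood in Hspd1 and Hsph1. The Hsph1 run lies after both of its starts, at positions 37 and 16 counted from them. The Hspd1 run begins 144 bases before the later of its starts and lies inside the annotated gene. The stretches below, of at most 30 bases, show these runs in capitals with a few flanking bases, at chr1:55088053-55088082 (minus strand) for Hspd1 and chr5:149636282-149636306 (minus strand) for Hsph1.
Hspd1: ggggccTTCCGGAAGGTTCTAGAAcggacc
Hsph1: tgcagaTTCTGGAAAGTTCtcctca
Windows of 300 bases (250 before the start and 50 after) were at hand for 6 of the 10 genes, Hspa1a, Hspa1b, Hsph1, Dnajb1, Hspb1 and Hspd1, with 9 windows in all because some genes have several starts. At least 2 alternating units stood in 6 of the 9 windows (66.7%), against 15.1% of all 32851 windows of that length. At least 3 alternating units, GAANNTTCNNGAA or its reverse complement, which contain the shorter pair, stood in 3 of 9 (33.3%), against 0.603% of all. The windows are not independent. Those of Hsph1 overlap and hold the same run, which is thus counted more than once, and those of Hspa1a and Hspa1b are 98.7% identical. The letters TATAAA stood in 0 of the 9 windows on either strand (13.6% of all windows), and CCAAT stood in 6 of 9 (37.4% of all). Neither Dnajb1 window held an alternating pair. These matches describe letters in the windows and not bound sites.

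Values below are log2(intensity + 1), a difference is 1 group minus another on that scale, errors after ± are SD over 3 arrays, and SE is that of the difference fitted with limma. Median intensity per array was 145.9 to 156. The targeted gene, Mllt10, was lower in deleted than in floxed leukemias at 4 of 4 probe sets, with differences of -0.76 to -1.05 (limma adjusted p = 0.00105 to 0.0328). Probe sets of 3 Y-linked genes lay between 2.97 and 4.71 on every array and served as a gauge of background. The control probes for the 3′ end of Gapdh read above those for its 5′ end, which tracks RNA integrity, by 1.03 in floxed replicate 5 and by 0.44 to 0.81 on the other 8 arrays. All 9 measured markers of myeloid and blood cells were above background on at least 1 array, with a summed intensity of 64655 to 68864 in deleted, 49696 to 61048 in floxed and 67759 to 72139 in Hoxa9-Meis1 leukemias. The summed intensity of 8 T and NK cell markers was 796 to 872 in deleted, 490 to 573 in floxed and 536 to 564 in Hoxa9-Meis1 leukemias, and by limma adjusted p 3 of 8 were higher in deleted than in floxed leukemias and 4 of 8 higher than in Hoxa9-Meis1 leukemias, against 2.92% and 8.90% of all genes. Of the myeloid list, Fcgr3 was higher in deleted leukemias by 0.88 and 0.64 in these comparisons, and Cebpa was lower in floxed than in Hoxa9-Meis1 leukemias (-1.13). Of the other marker lists, the late neutrophil gene Cxcr2 was higher in deleted leukemias by 1.90 against floxed and 2.08 against Hoxa9-Meis1. Pecam1, from the stromal and endothelial list, was lower in deleted leukemias (-2.12 and -2.14). Of that list it alone was called lower, so no change of endothelial cells is read from it. Among B cell genes Cd79b was lower in deleted than in floxed (-0.75) and higher in floxed than in Hoxa9-Meis1 leukemias (0.45), and Cd79a was higher in deleted than in Hoxa9-Meis1 leukemias (1.30). Klf1 and Cdh5 were higher in the latter comparison as well (0.81 and 0.58). These markers, chosen after their values were seen, are all that passed by limma at the brightest probe sets outside the T and NK cell list. Over all 21 probe sets of the B cell list, 6 were called higher and 1 lower in deleted against floxed leukemias (2.40% and 3.76% of all probe sets). In floxed against Hoxa9-Meis1 leukemias 6 were higher and 0 lower (4.94% and 4.07%). In deleted against Hoxa9-Meis1 leukemias 8 were higher and 0 lower (7.19% and 7.82%). No measured marker of erythroid, B, T and NK, stromal or late neutrophil cells stayed within background on all arrays, and their part in the values below was not tested. The background range lies below the median intensity, so a marker above it need not have been expressed. The erythroid genes Hba-a1 and Epor, for instance, had group means of 6.26 to 6.29 and 6.79 to 6.88.

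The inducible Hsp70 genes, Hspa1a and Hspa1b, were lower in both MLL-AF9 groups than in Hoxa9-Meis1 leukemias on average, and their spread between arrays was the widest of the members. Hspa1a, measured by 1 probe set (1452388_at), was at 12.39, 9.52 and 11.74 on the Hoxa9-Meis1 arrays. It was at 8.69, 6.29 and 6.68 in floxed replicates 4, 5 and 6 and at 7.64, 4.75 and 5.79 in deleted replicates 4, 5 and 6. Every Hoxa9-Meis1 array was thus above every MLL-AF9 array, while the ranges of floxed and deleted leukemias overlapped, and deleted replicate 5 stood just above background. The group means were 11.22 ± 1.5, 7.22 ± 1.29 and 6.06 ± 1.47. Floxed leukemias were lower than Hoxa9-Meis1 leukemias by a difference of -4.00 (SE 0.95, 16.0-fold), deleted ones by -5.16 (35.7-fold), and deleted minus floxed was -1.16 (SE 0.95). With 1 array left out, deleted minus floxed ran from -0.42 (without floxed replicate 4) to -1.95 (without deleted replicate 4), and without deleted replicate 5 it was -0.51 and deleted minus Hoxa9-Meis1 -4.50.

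Hspa1b, which encodes the same Hsp70 protein or nearly so, had a different order of groups. Its brightest probe set (1452318_a_at) was at 13.29, 10.83 and 12.47 on the Hoxa9-Meis1 arrays. Floxed leukemias were at 9.50, 6.83 and 7.90, and deleted leukemias were at 9.56, 9.88 and 10.74. All 3 deleted arrays were above all 3 floxed ones, though replicates numbered 4 were close (9.56 and 9.50), and below all Hoxa9-Meis1 arrays. Deleted minus floxed was 1.98 (SE 0.75, 3.94-fold), floxed minus Hoxa9-Meis1 was -4.11 (SE 0.75, 17.3-fold) and deleted minus Hoxa9-Meis1 was -2.13 (4.39-fold). Without floxed replicate 5, the lowest array and the one with the widest Gapdh gap, deleted minus floxed was 1.36, and without deleted replicate 6 as well it was 1.02.

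The remaining Hspa1b probe sets gave the same order of group means. Probe set 1427126_at was at 8.43 ± 0.58 in deleted, 6.31 ± 1.5 in floxed and 10.47 ± 1.60 in Hoxa9-Meis1 leukemias, with deleted minus floxed at 2.12 (SE 0.88) and overlapping ranges. Probe set 1427127_x_at was at 8.77 ± 0.55, 6.77 ± 1.44 and 10.73 ± 1.5, with deleted minus floxed at 2.0 (SE 0.83) and no overlap. In both of them deleted and Hoxa9-Meis1 ranges overlapped. The suffixes _a_at and _x_at mark probes that can match more than 1 transcript, which need not come from more than 1 gene. Signal of Hspa1a and Hspa1b may be mixed in any of the Hspa1b probe sets, and how much of each they read was not tested.

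**Figure D1:**
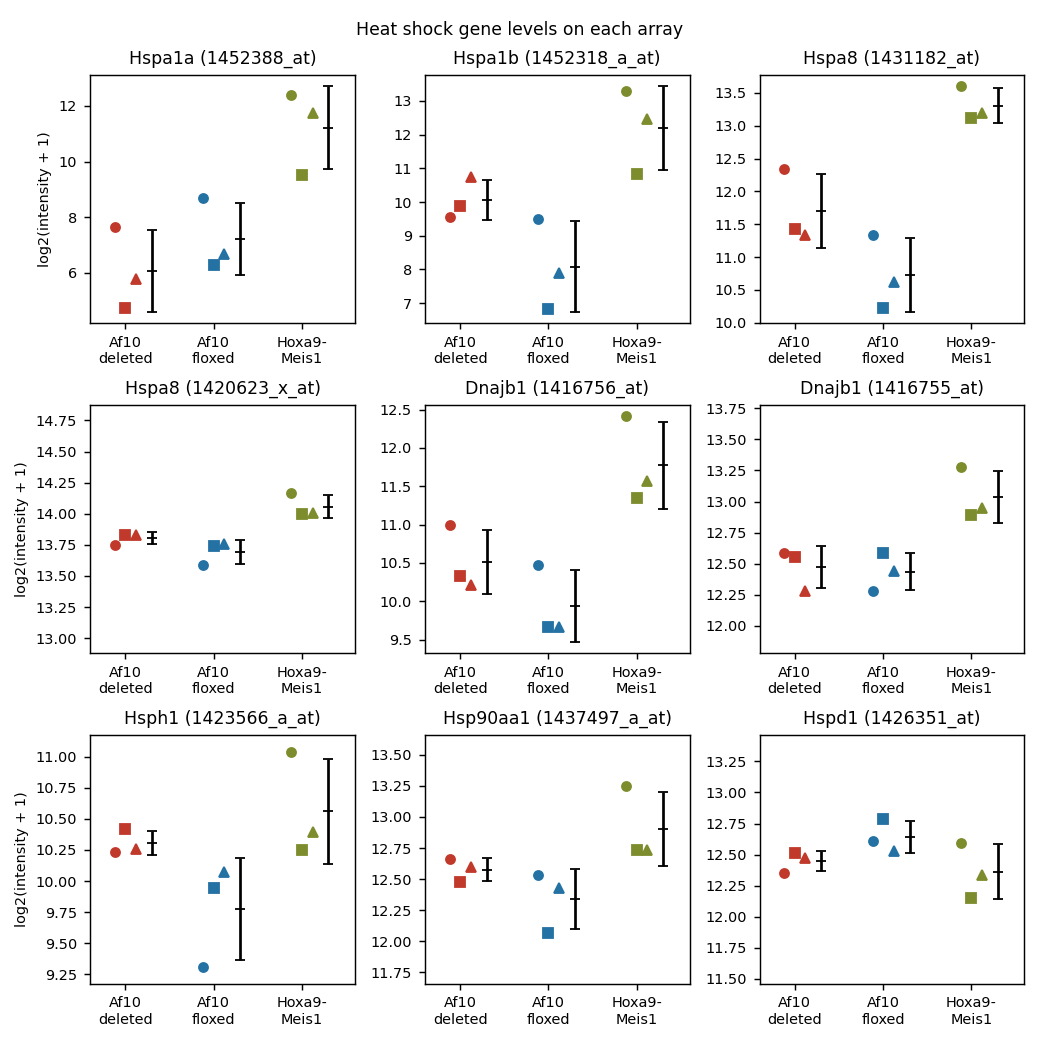
Level of 9 member probe sets on each array, as log2(intensity + 1) on axes that do not start at 0 and differ between panels. Circles, squares and triangles are the arrays in replicate order, and bars are the mean ± SD of 3 arrays. Hspa1a, Hspa1b, Hspa8 (1431182_at) and Dnajb1 (1416756_at) are highest on all Hoxa9-Meis1 arrays, while the vertical spans of Hspd1 and of Hspa8 (1420623_x_at) are far smaller.

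Set against each other within an array, the probe sets of this gene pair moved apart in deleted leukemias. Hspa1a minus Hspa1b (1452318_a_at) was -0.81, -0.54 and -1.23 on the floxed arrays and -0.90, -1.30 and -0.72 on the Hoxa9-Meis1 arrays. On the deleted arrays it was -1.92, -5.13 and -4.95. Only the shift between arrays is read here, since 2 probe sets differ in brightness for reasons of their own. Against 1427126_at the same quantity was 0.71 to 1.28 on floxed, 0.55 to 0.86 on Hoxa9-Meis1 and -0.65, -3.18 and -3.28 on deleted arrays. Against 1427127_x_at it was 0.16 to 0.82, 0.37 to 0.64 and -0.88, -3.64 and -3.61. Under each of the 3 Hspa1b probe sets the deleted arrays lay below the other 6 arrays, with deleted replicate 4 nearest to them.

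**Figure D2:**
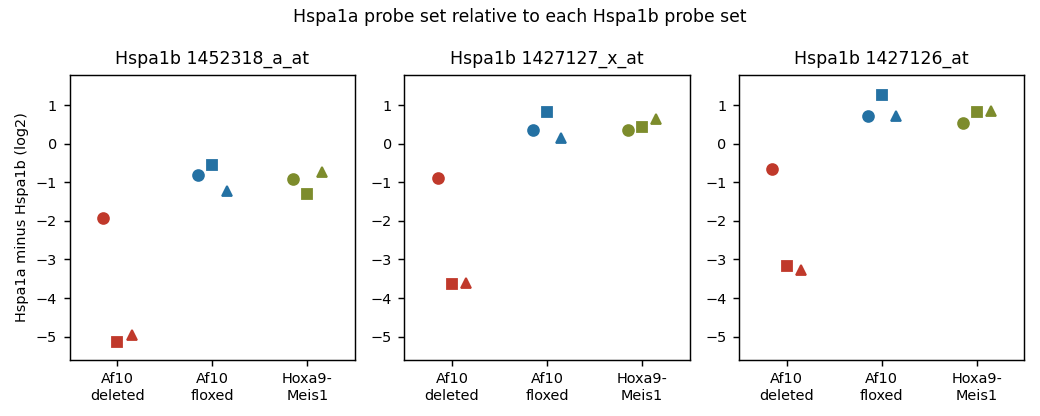
Within-array difference of Hspa1a from each of the 3 Hspa1b probe sets (log2 scale) by group, 1 point per array. Deleted arrays lie below the floxed and Hoxa9-Meis1 arrays in each panel, from -1.92 to -5.13 against 1452318_a_at, where the other 6 arrays lie between -1.30 and -0.54.

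Hspa8 encodes Hsc70, the Hsp70 of unstressed cells. It was bright on every array, and its probe sets disagreed on size. Probe set 1431182_at was at 13.61, 13.12 and 13.19 in Hoxa9-Meis1 leukemias. In floxed leukemias it was at 11.34, 10.23 and 10.62, and in deleted leukemias at 12.34, 11.43 and 11.33. Hoxa9-Meis1 arrays were above all others, and the deleted and floxed ranges overlapped by a single array pair. Floxed minus Hoxa9-Meis1 was -2.57 (SE 0.33, 5.96-fold), deleted minus Hoxa9-Meis1 was -1.60 (3.04-fold) and deleted minus floxed was 0.97 (SE 0.33, 1.96-fold).

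The other three Hspa8 probe sets barely moved. The brightest (1420623_x_at) was at 13.81 ± 0.05 in deleted, 13.69 ± 0.09 in floxed and 14.06 ± 0.10 in Hoxa9-Meis1 leukemias, with floxed minus Hoxa9-Meis1 at -0.36 (1.29-fold) and deleted minus floxed at 0.11 (SE 0.11). Across 1420622_a_at and 1455789_x_at, floxed minus Hoxa9-Meis1 was -0.31 and -0.28 and deleted minus floxed 0.07 and 0.08. In all of them the Hoxa9-Meis1 arrays stood above the MLL-AF9 arrays without overlap. Within an array, 1431182_at minus 1420623_x_at was -0.56 to -0.88 in Hoxa9-Meis1, -1.41 to -2.50 in deleted and -2.24 to -3.52 in floxed leukemias, so the probe sets of this 1 gene did not shift together. Which transcripts they read was not tested.

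Dnajb1, an inducible Hsp40 that hands clients to Hsp70 and stimulates its ATPase, showed the same split between probe sets. Probe set 1416756_at was at 12.42, 11.34 and 11.56 in Hoxa9-Meis1 leukemias. It was at 10.47, 9.67 and 9.66 in floxed and 10.99, 10.33 and 10.21 in deleted leukemias. The Hoxa9-Meis1 arrays were highest, and the floxed and deleted ranges overlapped. Floxed minus Hoxa9-Meis1 was -1.84 (SE 0.34, 3.58-fold), deleted minus Hoxa9-Meis1 -1.26 (2.40-fold) and deleted minus floxed 0.58 (SE 0.34), the last of which was 0.34 without deleted replicate 4. The brighter 1416755_at was at 13.04 ± 0.21 in Hoxa9-Meis1, 12.44 ± 0.15 in floxed and 12.47 ± 0.17 in deleted leukemias, that is -0.60 (1.52-fold) and -0.56 (1.48-fold) below Hoxa9-Meis1, with deleted minus floxed at 0.04. Within an array, the dimmer minus the brighter probe set was -0.86 to -1.54 in Hoxa9-Meis1, -1.59 to -2.22 in deleted and -1.81 to -2.92 in floxed leukemias.

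Hsph1 encodes Hsp110, a nucleotide exchange factor that recycles Hsp70. Its probe set 1423566_a_at was at 11.04, 10.25 and 10.40 in Hoxa9-Meis1, 9.31, 9.95 and 10.08 in floxed and 10.23, 10.41 and 10.26 in deleted leukemias. Floxed arrays were below both other groups, whose ranges overlapped. Deleted minus floxed was 0.53 (SE 0.25, 1.44-fold), or 0.29 without floxed replicate 4, and floxed minus Hoxa9-Meis1 was -0.78 (1.72-fold). By the brighter 1425993_a_at all ranges overlapped, with means of 10.95 ± 0.06, 10.71 ± 0.55 and 11.17 ± 0.42 in deleted, floxed and Hoxa9-Meis1 leukemias.

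Hsp90aa1 encodes the inducible cytosolic Hsp90, which matures kinases and steroid receptors. It was bright at 3 of its 5 probe sets, with small differences. The brightest (1426645_at) was at 13.13 ± 0.12 in deleted, 13.23 ± 0.05 in floxed and 13.47 ± 0.27 in Hoxa9-Meis1 leukemias. Probe set 1437497_a_at was at 12.58 ± 0.09, 12.34 ± 0.24 and 12.90 ± 0.30. In both of them the Hoxa9-Meis1 arrays lay above the others, by -0.24 and -0.56 in floxed minus Hoxa9-Meis1 (1.18-fold and 1.48-fold). Without Hoxa9-Meis1 replicate 1 the former was -0.09. Group ranges overlapped at 1438902_a_at, and at the much dimmer 1433251_at and 1441827_x_at, whose group means were 6.04 to 6.40.

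Hspb1, a small heat shock protein that holds unfolded proteins without using ATP, was dim, near the level of the erythroid genes Hba-a1 and Epor. Its probe set 1425964_x_at was at 6.47 ± 0.18 in deleted, 6.57 ± 0.01 in floxed and 6.93 ± 0.16 in Hoxa9-Meis1 leukemias, with deleted minus Hoxa9-Meis1 at -0.46 (1.38-fold) and no overlap. Its other probe set, 1422943_a_at, lay between 6.05 and 6.83 on all arrays with overlapping ranges. Hspd1 encodes mitochondrial Hsp60, a barrel-shaped chaperonin of the matrix. It was at 12.36, 12.52 and 12.47 in deleted, 12.61, 12.79 and 12.53 in floxed and 12.60, 12.15 and 12.34 in Hoxa9-Meis1 leukemias. Deleted minus floxed was -0.20 (SE 0.14), with the deleted arrays just below the floxed ones, and -0.13 without floxed replicate 5. Floxed minus Hoxa9-Meis1 was 0.28 with overlap, and 0.17 without Hoxa9-Meis1 replicate 2. This was the single member whose floxed mean was the highest of the 3 groups.

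Counted over the 20 probe sets, 0 passed a limma adjusted p of 0.05 as higher and 0 as lower in deleted against floxed leukemias, where 2.40% and 3.76% of all probe sets passed. There 4, the 3 of the single gene Hspa1b and Hspa8 1431182_at, had an unadjusted p under 0.05. For that threshold the share of all probe sets was not counted. In floxed against Hoxa9-Meis1 leukemias 7 were past the threshold as lower and 0 as higher (background 4.07% and 4.94%). They were the Hspa1a probe set, the 3 of Hspa1b, Hspa8 1431182_at and both of Dnajb1. In deleted against Hoxa9-Meis1 leukemias 5 were lower and 0 higher (background 7.82% and 7.19%), namely Hspa1a, Hspa8 1431182_at, both Dnajb1 probe sets and Hspb1 1425964_x_at. Because the genes were selected on these arrays, nothing is read from these counts. Without floxed replicate 5, floxed replicate 6, Hoxa9-Meis1 replicate 1 or Hoxa9-Meis1 replicate 3 the 7 became 3, and with only the compared groups in the fit 4. The 5 became 1 without Hoxa9-Meis1 replicate 1, 2 without deleted replicate 5 or 6, and 3 without deleted replicate 4, floxed replicate 6 or Hoxa9-Meis1 replicate 3, with median centring, or with only the compared groups in the fit. Without both deleted replicate 6 and floxed replicate 5 the counts were 3 and 2.

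Groups did not overlap, with the first group lower, at 14 of 20 probe sets for floxed against Hoxa9-Meis1 (14.2% of all probe sets) and at 11 of 20 for deleted against Hoxa9-Meis1 (16.3% of all). For deleted against floxed they did not overlap, with deleted higher, at 3 of 20 (13.0% of all), the Hspa1b sets 1427127_x_at and 1452318_a_at and Hsph1 1423566_a_at. With 1 probe set for each of the 8 genes, the brightest, the median difference was -0.03 for deleted minus floxed, -0.41 for floxed minus Hoxa9-Meis1 and -0.40 for deleted minus Hoxa9-Meis1. Over all 18194 genes it was 0.06, -0.01 and 0.05. With the mean of all probe sets of a gene in place of the brightest, the members' first median turned to 0.19 and the second was -0.75. The last 2 comparisons share the Hoxa9-Meis1 arrays, and the first shares its arrays with both.

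**Figure D3:**
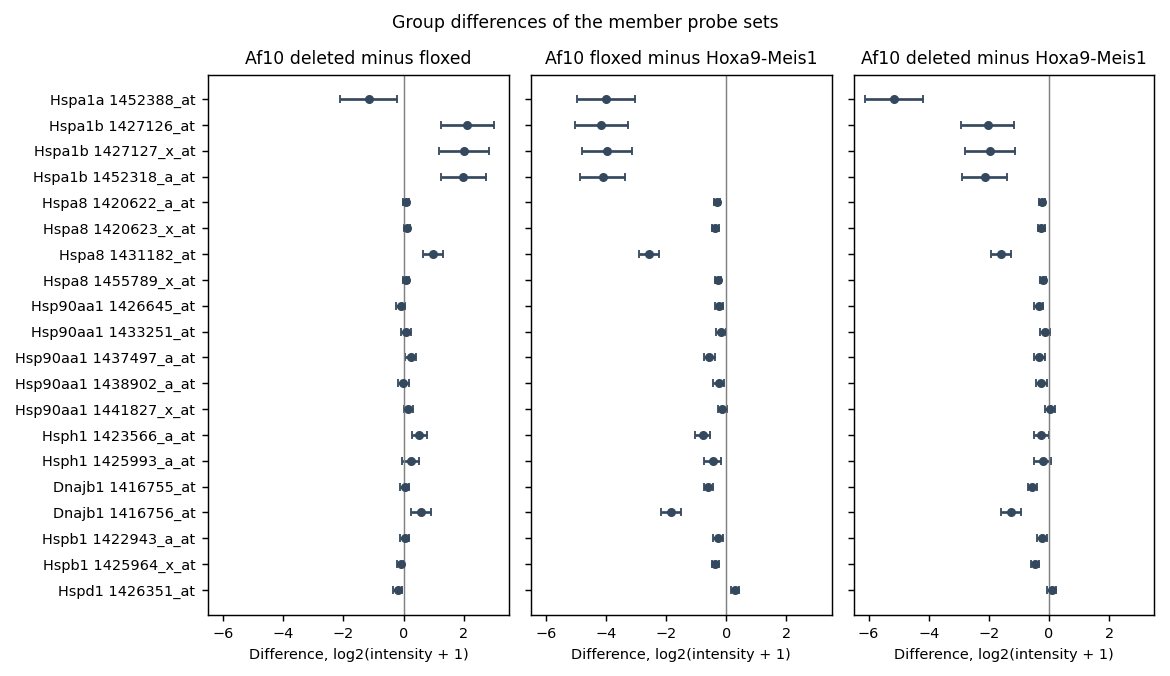
Difference between groups for the 20 member probe sets (log2 scale), with bars of 1 SE from limma, in 3 panels for the 3 comparisons. Hspa1a is at -1.16 in deleted minus floxed, where the 3 Hspa1b probe sets are at 1.98 to 2.12, and probe sets of Hspa8 and of Dnajb1 fall at unlike distances from 0.

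Immediate early genes, which cells switch on within minutes of many stimuli, handling included, were on average highest on the Hoxa9-Meis1 arrays, as Hspa1a was. The mean log2 level of 28 of them was 11.52, 10.75 and 11.66 on Hoxa9-Meis1 arrays, 10.20, 9.20 and 9.38 on floxed arrays and 10.60, 10.16 and 9.82 on deleted arrays. Hoxa9-Meis1 arrays were the 3 highest and floxed replicates 5 and 6 the lowest. Summed intensity was 117596 to 175469, 39170 to 72497 and 61012 to 101739 in these groups. By limma adjusted p, 16 of 28 were lower and 0 higher in floxed than in Hoxa9-Meis1 leukemias, with a median difference of -1.68, against 3.24% and 5.42% of all genes. In deleted against Hoxa9-Meis1 leukemias 5 of 28 were lower and 0 higher (median difference -0.92), against 6.03% and 8.90% of all genes. Deleted leukemias had 1 of 28 higher than floxed and 0 lower (median difference 0.66), against 2.92% and 3.46% of all genes. Fos, a subunit of the AP-1 factor, was at 13.62 ± 0.26 in Hoxa9-Meis1, 11.44 ± 0.69 in floxed and 12.48 ± 0.71 in deleted leukemias. Floxed minus Hoxa9-Meis1 was -2.18 for this gene (limma adjusted p = 0.0129). Over deleted replicates 4, 5 and 6 the immediate early mean fell, while Hspa1b (1452318_a_at) rose, at 9.56, 9.88 and 10.74. Hspa8 1431182_at fell, at 12.34, 11.43 and 11.33, and so did Dnajb1 1416756_at, at 10.99, 10.33 and 10.21. Hspa1a was at 7.64, 4.75 and 5.79. In deleted minus floxed, Hspa1a was at -1.16 and Hspa1b 1452318_a_at at 1.98, beside the immediate early median of 0.66. The Hspa8 and Dnajb1 probe sets were at 0.97 and 0.58. The part of sorting or of handling in the heat shock values was not tested.

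**Figure D4:**
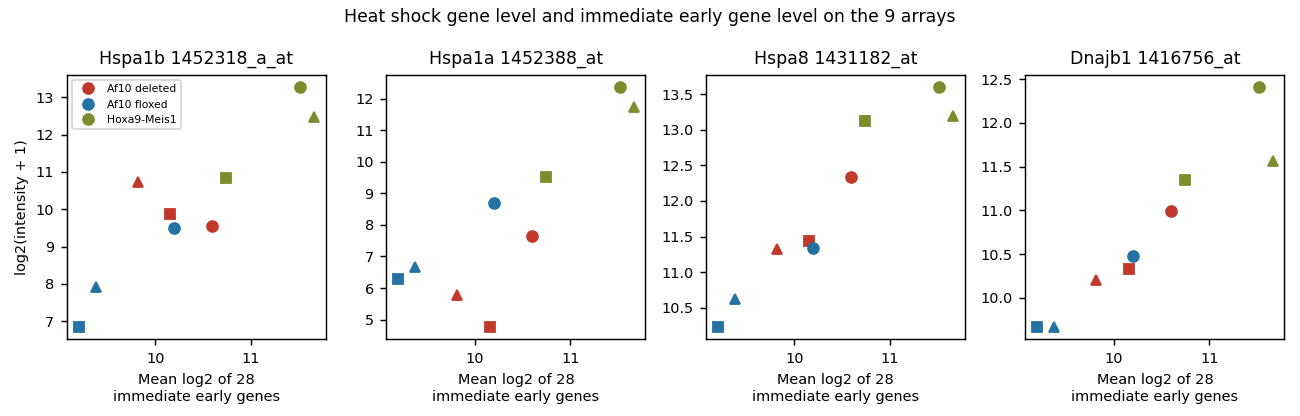
Level of 4 heat shock probe sets against the mean log2 level of 28 immediate early genes on the 9 arrays, colours by group and symbols by replicate. Hoxa9-Meis1 arrays lie highest on both axes in each panel. Hspa1a in deleted replicates 5 and 6 (4.75 and 5.79) lies below floxed replicates 5 and 6, which have a lower immediate early level. Hspa8 (11.43 and 11.33) and Dnajb1 (10.33 and 10.21) in these deleted arrays lie above the same floxed arrays. The 9 points share arrays within 3 groups, and no test was made.

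Other genes of the heat shock and chaperone network were listed by function, 64 in all, of which 60 were measured. Each is counted at its brightest probe set unless said otherwise. By limma adjusted p over all probe sets, 2 of 60 were higher and 0 lower in deleted than in floxed leukemias. The number was 2 higher and 1 lower in floxed against Hoxa9-Meis1, and 9 higher and 1 lower in deleted against Hoxa9-Meis1. In deleted against floxed leukemias 17 of 60 had an unadjusted p under 0.05. For that threshold the share of all genes was not counted, here or for the lists below. Over all 143 probe sets of these genes the calls were 2 higher and 0 lower in deleted against floxed leukemias. Against Hoxa9-Meis1 they were 7 higher and 7 lower in floxed, and 12 higher and 6 lower in deleted leukemias. Of all probe sets on the arrays 2.40% were higher and 3.76% lower, 4.94% and 4.07%, and 7.19% and 7.82%. These shares also stand beside the probe-set counts of the lists below. Directions were more even than among the brightest probe sets in both comparisons with Hoxa9-Meis1. No more is read from these counts. The list's median difference was -0.03, 0.16 and 0.11 in these comparisons, against 0.06, -0.01 and 0.05 over all genes. Over all genes the shares were 2.92% higher and 3.46% lower, 5.42% and 3.24%, and 8.90% and 6.03%. The 2 in deleted against floxed became 0 without deleted replicate 4 or 5, floxed replicate 5 or Hoxa9-Meis1 replicate 1, and 1 without floxed replicate 4 or 6 or Hoxa9-Meis1 replicate 3. The 3 in floxed against Hoxa9-Meis1 became 0 without floxed replicate 5 or Hoxa9-Meis1 replicate 1, 1 without floxed replicate 4 and 5 without Hoxa9-Meis1 replicate 3. The 10 in deleted against Hoxa9-Meis1 became 5 without deleted replicate 4 or Hoxa9-Meis1 replicate 1.

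Among 14 measured inducible genes outside the members, 1 was lower in floxed than in Hoxa9-Meis1 leukemias and 0 were higher. This was Dnaja1, an inducible Hsp40 that works with Hsc70, at 13.00 ± 0.37 in Hoxa9-Meis1, 12.14 ± 0.07 in floxed and 12.27 ± 0.20 in deleted leukemias. Floxed minus Hoxa9-Meis1 was -0.86 (SE 0.19, 1.82-fold, limma adjusted p = 0.0233), and deleted minus Hoxa9-Meis1 was -0.73 (1.66-fold, limma adjusted p = 0.0304). Its other two probe sets differed by -1.0 and -1.23 in the former comparison (limma adjusted p = 0.0652 and 0.0501). The call did not hold without floxed replicate 5 (limma adjusted p = 0.0723), floxed replicate 6 (0.0566) or Hoxa9-Meis1 replicate 1 (0.0572). In deleted against Hoxa9-Meis1 it did not hold without any one of the deleted arrays (0.0569 to 0.0882) or Hoxa9-Meis1 replicate 1 (0.0732). Ahsa1, the activator of the Hsp90 ATPase, was higher in deleted than in Hoxa9-Meis1 leukemias by 0.51 at its brightest probe set (limma adjusted p = 0.0474), but by the mean of its probe sets the difference was -0.08 (limma adjusted p = 0.791). The call was also lost with further quantile normalization, with only the compared groups in the fit, and without any one of deleted replicates 4 and 5, the floxed arrays or Hoxa9-Meis1 replicates 1 and 2 (limma adjusted p = 0.0579 to 0.159). Bag3, an Hsf1 target and Hsp70 cochaperone chosen here after its values were seen, was at 7.67 ± 0.55 in Hoxa9-Meis1, 6.84 ± 0.21 in floxed and 7.26 ± 0.02 in deleted leukemias (floxed minus Hoxa9-Meis1 -0.83, limma adjusted p = 0.0698).

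Of 19 measured cofactors of Hsp70 and Hsp90, 1 was higher in deleted than floxed, 2 in floxed than Hoxa9-Meis1 and 3 in deleted than Hoxa9-Meis1 leukemias, with 0 lower in any of the 3 at the brightest probe sets. Over all 50 probe sets of these cofactors, 4 were higher and 4 lower in floxed against Hoxa9-Meis1, and 5 higher and 3 lower in deleted against Hoxa9-Meis1. Sugt1, an Hsp90 cochaperone, was at 10.65 ± 0.16 in deleted, 10.08 ± 0.13 in floxed and 10.07 ± 0.19 in Hoxa9-Meis1 leukemias, with deleted minus floxed at 0.57 (SE 0.14, limma adjusted p = 0.048). That call was lost with any array left out except Hoxa9-Meis1 replicate 2 (limma adjusted p = 0.0545 to 0.137). The other Sugt1 probe set, 1426424_at, gave 0.16 in deleted minus floxed (limma adjusted p = 0.682). Against Hoxa9-Meis1 it gave 0.58 in deleted leukemias (limma adjusted p = 0.087). Deleted minus Hoxa9-Meis1 was 0.59 for Sugt1 (limma adjusted p = 0.0238), a call lost without deleted replicate 4 or Hoxa9-Meis1 replicate 1 or 2 (0.0598 to 0.0877). Cdc37, which brings kinases to Hsp90, was higher in deleted than in Hoxa9-Meis1 leukemias by 0.69 (1.62-fold, limma adjusted p = 0.00695). Dnajc5, a synaptic-vesicle Hsp40 also present outside neurons, was higher in deleted than in Hoxa9-Meis1 leukemias by 0.59 (limma adjusted p = 0.00783) and in floxed by 0.43 (0.0405). The floxed call was lost without any one of deleted replicates 4 and 5, the floxed arrays or Hoxa9-Meis1 replicates 1 and 2. Floxed minus Hoxa9-Meis1 was 0.46 and 0.50 at 1436179_a_at and 1448850_a_at (limma adjusted p = 0.131 and 0.0503). It was 0.02 and -0.15 at 1448851_a_at and 1460498_a_at (0.957 and 0.645). Deleted minus Hoxa9-Meis1 passed at 1436179_a_at (0.59, limma adjusted p = 0.0461). It did not pass at the remaining Dnajc5 probe sets (0.18 to 0.38, limma adjusted p = 0.0889 to 0.534). Dnajb6, an Hsp40 that keeps aggregation-prone proteins soluble, was higher in floxed than in Hoxa9-Meis1 leukemias by 0.59 at its brightest probe set (limma adjusted p = 0.0219) but lower by a difference of -0.69 at 1429777_at (0.017), so its probe sets disagreed. The former call was lost without floxed replicate 4 or 5 or Hoxa9-Meis1 replicate 1 or 2 (limma adjusted p = 0.0502 to 0.0896).

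The 14 subunits of the TRiC chaperonin and of prefoldin, the complex that delivers actin and tubulin to it, included 1 gene higher in deleted than in floxed and 2 higher in deleted than in Hoxa9-Meis1 leukemias, with 0 lower in either at the brightest probe sets. Over all 35 probe sets 1 was lower in each comparison with Hoxa9-Meis1. Pfdn6 was at 11.65 ± 0.15 in deleted, 10.98 ± 0.19 in floxed and 10.88 ± 0.20 in Hoxa9-Meis1 leukemias. Deleted minus floxed was 0.67 (SE 0.15, 1.59-fold, limma adjusted p = 0.0358), and the call was lost without deleted replicate 4 or 5, floxed replicate 5 or 6 or Hoxa9-Meis1 replicate 1 (limma adjusted p up to 0.119). Pfdn4 was higher in deleted than in Hoxa9-Meis1 leukemias by 0.80 (1.74-fold, limma adjusted p = 0.0131), and Pfdn6 by 0.77 (0.0103).

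Of 10 mitochondrial chaperones and proteases, 3 were higher in deleted than in Hoxa9-Meis1 leukemias and 0 lower, while 0 passed in the other comparisons at the brightest probe sets (3 with an unadjusted p under 0.05 in each). Over all 22 probe sets, 2 were higher in floxed than in Hoxa9-Meis1 leukemias. Grpel1, the nucleotide exchange factor of mitochondrial Hsp70, led them at 0.67 (1.59-fold, limma adjusted p = 0.00629). Hspe1, the Hsp10 partner of Hspd1 and chosen here as such, was at 12.92 ± 0.12, 12.85 ± 0.09 and 12.90 ± 0.16 in deleted, floxed and Hoxa9-Meis1 leukemias. Among 3 genes of heat shock factors and their binding proteins 0 passed by limma in any comparison at the brightest probe set, with 1 at an unadjusted p under 0.05, in deleted against floxed. Over their 5 probe sets 1 was lower in deleted than in Hoxa9-Meis1 leukemias.

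**Figure D5:**
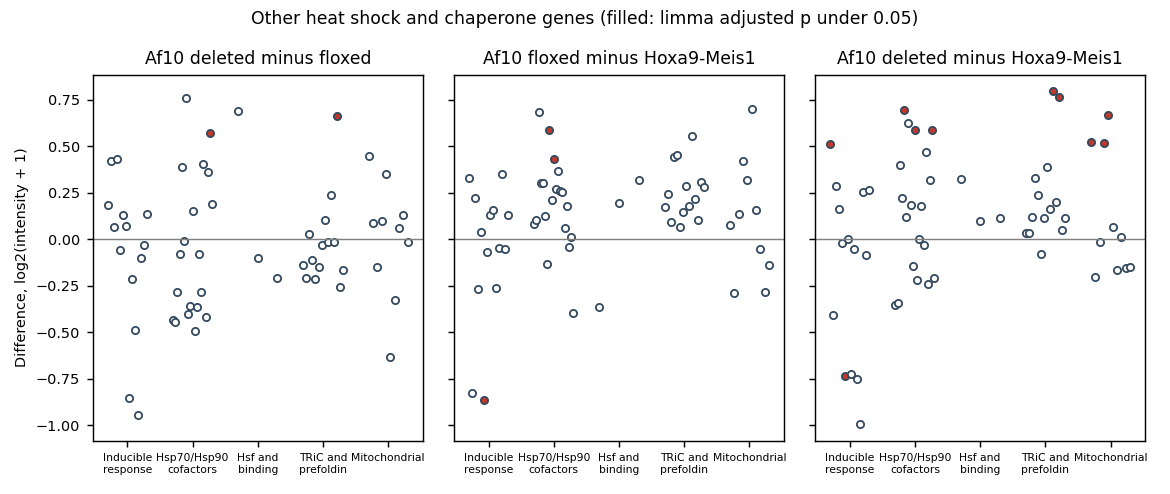
Differences of 60 measured heat shock and chaperone genes outside the members (log2 scale), by functional list and comparison, 1 point per gene at its brightest probe set. Filled points passed a limma adjusted p of 0.05. Filled points number 2, 3 and 10 in the 3 panels, and Dnaja1 is the filled point below 0 in both comparisons with Hoxa9-Meis1.

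Array profiles were compared with a mean profile of inducible members among 2578 candidate genes. These lay outside the members, with a mean of at least 6 and an SD over the 9 arrays at least 0.5 times the reference's. The nearest of them was Itgb4, an integrin subunit. The reference was the mean over Hspa1a, Hspa1b, Hsph1, Dnajb1 and Hsp90aa1 of each gene's brightest probe set, centred over the 9 arrays. The genes were not scaled, so Hspa1a and Hspa1b, with the widest spread, weigh most in it. On deleted arrays it averages these genes, which moved apart there, and so need not follow any single member. The reference was 1.85, 0.46 and 1.26 on Hoxa9-Meis1, -0.25, -1.10 and -0.73 on floxed and -0.24, -0.77 and -0.47 on deleted arrays. Likeness was the root mean square difference over the 9 arrays. It was 0.203 for Itgb4, 0.233 for Coq5, a coenzyme Q synthesis enzyme, 0.302 for Rtn2, 0.336 for the cytokine gene Tnf, 0.338 for Ier2 and 0.339 for Prss12. Ier2 is also in the immediate early list. Itgb4 was at 8.36 ± 0.48 in Hoxa9-Meis1, 6.68 ± 0.34 in floxed and 6.94 ± 0.10 in deleted leukemias, and Coq5 was at 11.06 ± 0.29, 9.37 ± 0.25 and 9.54 ± 0.20.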

How the data were processed

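The arrays measured cRNA labelled with biotin, made from 100 ng of RNA per sample of fresh marrow, per the labels' protocols. The authors deposited 1 intensity per probe set, made with RMA per the submitters' processing notes; no label or file names its version, software or chip definition. RMA includes quantile normalization, which removes a shift shared by most genes. The intensities ran from 4.60 to 32082, so they are linear. They were analysed as log2(value + 1), where changes near background come out slightly small. The annotation gave 1 symbol for 34958 probe sets, several for 932 and none listed for 9211.

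All 9 arrays entered 1 group-means fit with limma 3.58.1 in R 4.3.3, and two-sided p-values were adjusted by Benjamini-Hochberg over 45101 probe sets, with a threshold of 0.05. A gene was represented by its brightest probe set on average. Members and lists were chosen with earlier results of these data known; the 64 further genes came from their known function. All members were named, with at most 6 higher and 6 lower further genes per comparison, by size, among those past the threshold; Ahsa1, Bag3, Hspe1, Fos and single markers were named outside this rule, after their values were seen. The 6 nearest profiles were also named. The labels number the MLL-AF9 arrays 4, 5 and 6; numbers 1 to 3 of the Hoxa9-Meis1 arrays are only names. No pair of arrays was a duplicate (smallest mean absolute difference 0.22). Alternatives were a pseudocount of 32, further quantile normalization, median centring, a minimum mean of 6, a fit of only the compared groups, array weights, a replicate block, the mean of all probe sets of a gene, and leaving out arrays.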

Additional observations from a re-analysis of the deposited data

How the results depend on the processing

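Alternatives were run for the member probe sets, the summary counts and 13 named differences of further genes that passed, and not for the immediate early, marker or Mllt10 calls. Of these 13, Ahsa1 in deleted minus Hoxa9-Meis1, whose alternatives were added after its values were seen, turned from 0.51 to -0.0812 with the mean of all probe sets of a gene. For the further heat shock and chaperone genes, 2 passed in deleted against floxed leukemias, against 0 with only the compared groups in the fit, 0 with the replicate block, 1 with the mean of all probe sets of a gene, 1 without both deleted replicate 6 and floxed replicate 5, and 0 to 2 with 1 array left out. In floxed against Hoxa9-Meis1 leukemias 3 passed, against 5 with array weights, 7 with the mean of all probe sets, 1 without both arrays, and 0 to 5 with 1 array left out. In deleted against Hoxa9-Meis1 leukemias 10 passed, and 5 to 9 with 1 array left out. With the mean of all probe sets of a gene, the median difference over the members was 0.19 instead of -0.03 in deleted minus floxed and -0.75 instead of -0.41 in floxed minus Hoxa9-Meis1. With 1 array left out it was -0.07 to 0.03, -0.50 to -0.29 and -0.48 to -0.29 in the 3 comparisons. The replicate block called 1 member probe set lower in deleted leukemias, against 0 without it. Same-numbered deleted and floxed arrays correlated in their deviations at 0.03 to 0.05, and differently numbered ones at -0.12 to 0.07. With 3 arrays a group this cannot settle whether the numbers pair the samples, which the labels do not say. Of the 13, 8 lost the call under at least 1 alternative, and 5 did not (Pfdn4, Pfdn6, Cdc37, Grpel1 and Dnajc5, all in deleted against Hoxa9-Meis1 leukemias). Signal over background limits Hspa1a in deleted replicate 5. Hspa1a in deleted replicate 6 (5.79) and floxed replicate 5 (6.29) was also about as dim as the erythroid gene Hba-a1, or dimmer. So was Hspa1b 1427126_at in floxed replicates 5 and 6 (5.01 and 5.96). Both Hspb1 probe sets lay near the level of Hba-a1 and Epor. How far this limits the folds of these genes was not tested.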
